A study of Homo sapiens with 4 samples.

Results

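The genes described here are 8 transcription factors of lung and endoderm lineages, SOX2, SOX4, SOX9, SOX13, GATA6, HNF4A, HNF4G and NKX2-1, out of 58051 genes counted per library. They were chosen by name, and each was matched to 1 Ensembl gene. PolyA RNA was sequenced from A549 cells, a long-established line derived from a human lung carcinoma. All cells carried A-Fos, a doxycycline-inducible dominant-negative FOS protein, inserted at random with piggyBac transposase. The plus Dox group has 2 libraries of cells given 1 µg/mL doxycycline, and the minus Dox group has 2 libraries of the same engineered cells with no treatment. The labels do not say whether the cells were a clone or a pool, how long doxycycline was given, or whether the 2 libraries of each group were grown as separate cultures. The p-values below therefore reflect no more than the difference between these samples, and part of that spread may be technical. The drug and the A-Fos protein come together here and cannot be told apart.

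SOX proteins bind DNA through an HMG box that bends the helix, and they fall into subfamilies with shared partners. GATA6 is a zinc finger factor of endoderm and lung epithelium, and HNF4A and HNF4G are nuclear receptors of liver, gut and kidney. NKX2-1 is the homeodomain factor that specifies lung and thyroid and switches on surfactant genes. In the developing mouse lung Sox2 marks the proximal airway and Sox9 the distal tips. In mouse lung adenocarcinoma, tumours without Nkx2-1 take on a gastric state in which Hnf4a is expressed. A-Fos pairs with JUN proteins and keeps them off AP-1 sites, and the series concerns the joint binding of the pioneer factor FOXA1 and AP-1.

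HNF4A is the member with well-known alternative promoters, and the counts, which are per gene, do not separate their transcripts. The 250 bases before each RefSeq start (GRCh38.p14, chromosome 20, plus strand, chr20:44355449-44355698 and chr20:44400989-44401238) are shown because they differ in the letters that the series is about. Capitals mark exact matches, on either strand, to the motif letters searched: TGANTCA for AP-1, TGTTTAC for forkhead factors, CAAAGTCCA for HNF4, AGATAA for GATA and ACAATGG for SOX.
HNF4A upstream promoter: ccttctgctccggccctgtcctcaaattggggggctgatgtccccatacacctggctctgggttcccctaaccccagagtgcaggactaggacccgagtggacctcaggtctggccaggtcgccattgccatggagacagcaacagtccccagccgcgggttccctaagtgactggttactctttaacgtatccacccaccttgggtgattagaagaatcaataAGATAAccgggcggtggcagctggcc
HNF4A downstream promoter: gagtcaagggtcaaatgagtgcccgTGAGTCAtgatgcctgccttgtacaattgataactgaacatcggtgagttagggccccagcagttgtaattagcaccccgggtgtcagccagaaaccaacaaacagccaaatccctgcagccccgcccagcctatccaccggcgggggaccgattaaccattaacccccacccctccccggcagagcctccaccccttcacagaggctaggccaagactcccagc

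The starts lie 45540 bases apart. The upstream promoter holds a GATA match at bases -26 to -21 from the start, and the downstream promoter holds an AP-1 match at -225 to -219. In the same 250 bases the AP-1 letters occur in 6.57% and the GATA letters in 9.17% of 35116 RefSeq promoters, with 2.98% for forkhead, 2.62% for SOX and 0.325% for HNF4. The search of members covered 8 promoters of 6 members, and none of SOX9 or HNF4G. The only other matches were a forkhead and a GATA match in 1 of the 2 NKX2-1 promoters. A match describes letters and is not a binding site.

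Total counts were 32727539 and 31104964 in the plus Dox libraries and 36377784 and 40526912 in the minus Dox libraries. Reads counted to FOS, which cannot be told from reads of the inserted A-Fos, averaged 49.8 ± 1.64 CPM in plus Dox and 1.44 ± 0.113 CPM in minus Dox (SD, n = 2 each). CPM here are counts scaled to library size with TMM, a correction for library composition. The 6 simple epithelium markers summed to 6489 and 6293 CPM in plus Dox and 12625 and 12966 CPM in minus Dox. Of these markers 5 fell, where 28.4% of all tested genes were called lower. Most of the difference between the sums was in KRT7, at 526 CPM in plus Dox and 4544 CPM in minus Dox (log2 fold change −3.11, SE 0.03). KRT19 fell to 21.1 CPM in plus Dox, against 122 CPM in minus Dox. KRT8 and KRT18 averaged 3656 and 2151 CPM in plus Dox and 5280.1 and 2807 CPM in minus Dox, and their direction turned with a correction for a trend on GC, length and abundance (log2 fold changes of 0.23 and 0.33). CDH1 did not pass (edgeR adjusted p = 0.0815). Of 13 lung surfactant, alveolar and airway genes 7 were too low to be tested, and 2 of these, SFTPA1 and SCGB3A2, had 0 counts in every library. ABCA3 averaged 87.3 CPM in plus Dox and 120 CPM in minus Dox, and LPCAT1 22.0 and 65.2 CPM. The other tested genes, LAMP3, NAPSA, SFTPD and CLDN18, averaged at most 2.50 CPM in either group. Summed levels of 7 fibroblast markers were 40.0 and 41.9 CPM in plus Dox and 43.6 and 49.9 CPM in minus Dox, nearly all from COL1A1. Those of 5 endothelial markers were 1.53 and 1.37 CPM in plus Dox against 1.80 and 1.95 CPM in minus Dox. VWF was higher (0.57 CPM in plus Dox against 0.0444 CPM in minus Dox) and PECAM1 and CDH5 lower, calls of which only that of VWF held in DESeq2. VWF had 17 and 22 counts in plus Dox and 3 and 0 in minus Dox, and PECAM1 7 and 4 against 17 and 20. VWF and PECAM1 passed the filter on low counts only through the group where each was high, and CDH5 would not have passed on its plus Dox libraries alone. CDH5 had 18 and 1 counts in plus Dox against 31 and 41 in minus Dox, and lost its call without plus Dox replicate 2 (edgeR adjusted p = 0.130). The levels summed over 6 leukocyte markers were 1.53 and 1.34 CPM in plus Dox against 3.19 and 2.21 CPM in minus Dox, with CD3E at 0 in every library. Most of each sum came from CD14, the only tested gene of that list, at 1.08 CPM in plus Dox and 2.23 CPM in minus Dox. CD14 was called lower (log2 fold change −1.05, SE 0.28, edgeR adjusted p = 0.0015). The 4 squamous or basal markers summed to at most 0.187 CPM in any library, and the 4 neuroendocrine markers to 3.84 and 4.98 CPM in plus Dox against 1.80 and 2.35 CPM in minus Dox, nearly all from SYP. The part of these markers in the results below was not tested.

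Among the 8 lineage factors, SOX4, SOX9 and HNF4A fell with doxycycline, HNF4G, GATA6 and SOX13 rose by less, and SOX2 did not pass the test. The 3 falls held under all 11 alternatives tried, while the rise of HNF4G went to −0.01 with a correction for GC, length and abundance, and those of GATA6 and SOX13 were lost in DESeq2 and without plus Dox replicate 1. NKX2-1 was removed by the filter on low counts. The 3 that fell were the 3 most abundant members without doxycycline. Called genes have an adjusted p under 0.05 in the edgeR quasi-likelihood test, adjusted by Benjamini-Hochberg over 18046 tested genes. Of the 7 tested members 6 were called (3 higher, 3 lower), where 56.9% of all tested genes were called, 28.4% higher and 28.4% lower. The median log2 fold change was 0.18 over the 7 members and 0.00 over all tested genes, and the median absolute value was 0.62 and 0.36. In all 7 tested members the CPM of the groups did not overlap, as in 77.0% of tested genes, so the share without overlap says little of these members. In all tested genes 38.7% lay apart and higher in plus Dox and 38.3% apart and lower, where the members had 4 and 3. SOX4 and SOX9 were lower by at least 2-fold (2.53 and 2.05), as were 6.01% of tested genes.

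**Figure D1:**
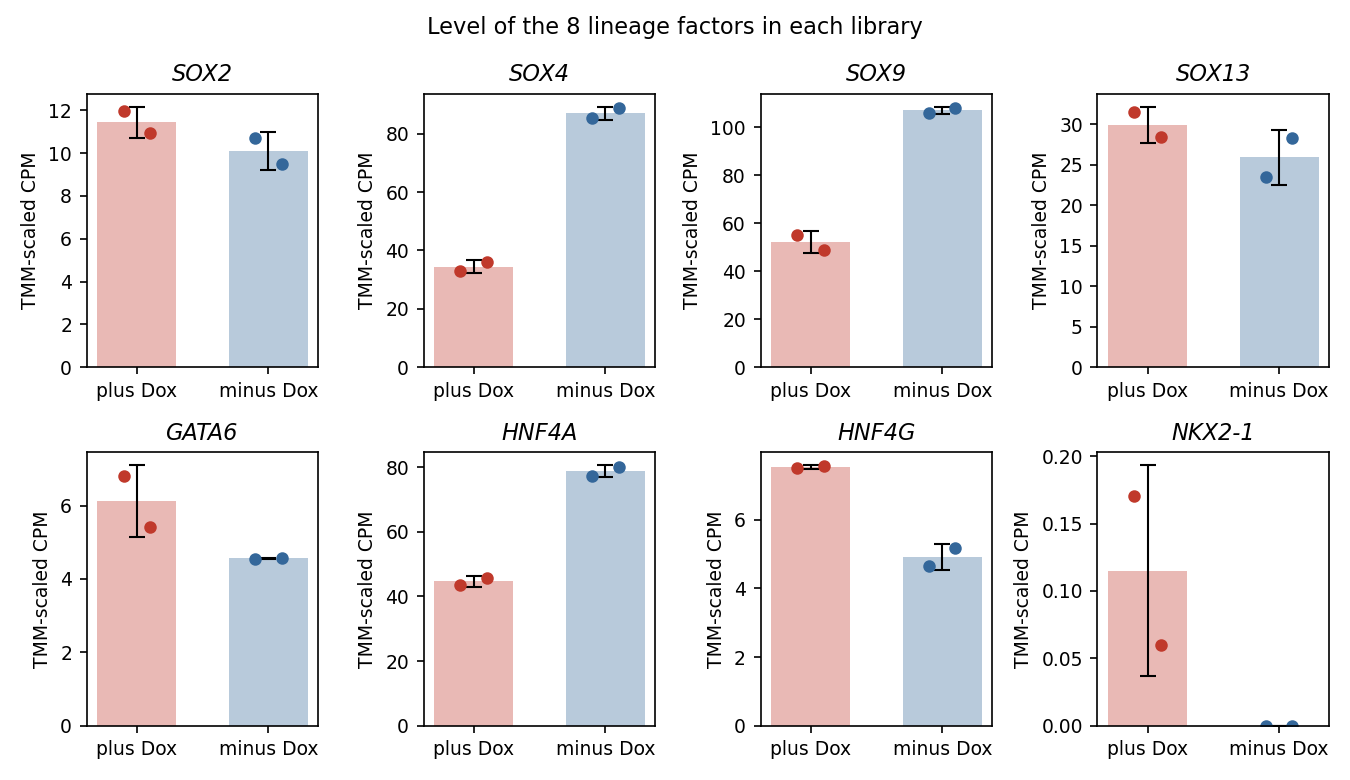
TMM-scaled CPM (vertical axes, each with its own scale from 0) of the 8 lineage factors, in plus Dox (left) and minus Dox (right). Points are libraries, bars are means and error bars are the SD over 2 libraries. SOX4, SOX9 and HNF4A are lower in both plus Dox libraries, and NKX2-1 stays under 0.2 CPM.

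SOX4 is a SoxC factor active in progenitors and in many carcinomas (ENSG00000124766, hg38 chromosome 6, 21592768 to 21598619, plus strand, 1 annotated transcript). It had 32.8 and 36.0 CPM in the plus Dox libraries, against 85.4 and 88.6 CPM in the minus Dox libraries. Both plus Dox libraries lay well under both minus Dox libraries. Its log2 fold change of −1.34 (SE 0.06) had an edgeR adjusted p of 1.63e-20. It was the largest change among the members, and 4.12% of tested genes had a lower log2 fold change. In bulk RNA, fewer cells expressing a gene and less RNA of it per cell cannot be told apart. Of its exon bases 2.87% lie opposite another annotated gene.

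SOX9, a SoxE factor that drives cartilage formation and marks distal lung progenitors (ENSG00000125398, chromosome 17, 72121020 to 72126420, plus strand), was the most abundant member. It had 55.3 and 49.0 CPM in the plus Dox libraries, against 106 and 108 CPM in the minus Dox libraries. The plus Dox libraries differed more from each other than the minus Dox libraries did, by much less than the gap between the groups. Its log2 fold change of −1.04 (SE 0.05) had an edgeR adjusted p of 3.81e-18. Its antisense neighbour SOX9-AS1, at 0.511 CPM in plus Dox and 0.657 CPM in minus Dox on average, did not pass (adjusted p = 0.521 in edgeR).

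SOX2, a SoxB factor of airway progenitors and pluripotent cells (ENSG00000181449, chromosome 3, 181711924 to 181714436, plus strand), was present at a modest level in both groups. It had 11.96 and 10.9 CPM in the plus Dox libraries, against 10.7 and 9.47 CPM in the minus Dox libraries. The nearest libraries of the groups, at 10.9 CPM in plus Dox and 10.7 CPM in minus Dox, lay closer together than the libraries within either group. The log2 fold change was 0.18 (SE 0.11), an interval of −0.04 to 0.40 at 2 SE, and edgeR's adjusted p was 0.157. That interval does not show that SOX2 was unaltered, and the gene passed as higher when libraries were scaled by size alone (0.40) or when a trend on GC, length and abundance was taken out (0.30). SOX2 lies within SOX2-OT, a long non-coding RNA gene with which it shares no exon bases and which had 3 and 6 counts in plus Dox and 3 and 1 counts in minus Dox.

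SOX13, a SoxD factor that lacks an activation domain of its own (ENSG00000143842, chromosome 1, 204073115 to 204127743, plus strand), was slightly higher. It had 31.6 and 28.4 CPM in the plus Dox libraries, against 23.5 and 28.4 CPM in the minus Dox libraries. The lower plus Dox library and the higher minus Dox library were nearly equal. The log2 fold change was 0.21 (SE 0.08), with an adjusted p of 0.0292 in edgeR. The call did not hold without minus Dox replicate 1 (0.07, adjusted p = 0.500), without plus Dox replicate 1 (0.13, adjusted p = 0.351) or in DESeq2 (adjusted p = 0.174).

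GATA6 (ENSG00000141448, chromosome 18, 22169443 to 22202528, plus strand) was a low-level gene here. It had 6.82 and 5.43 CPM in the plus Dox libraries, against 4.56 CPM in each minus Dox library. The minus Dox libraries were nearly identical, and the plus Dox libraries differed by more than 1 CPM. The log2 fold change was 0.43 (SE 0.15) with an adjusted p of 0.0165 in edgeR. The call did not hold without plus Dox replicate 1 (0.25, adjusted p = 0.304) or in DESeq2 (adjusted p = 0.162). GATA6-AS1 lies opposite 6.08% of its exon bases and a second antisense gene opposite 8.14%, and GATA6-AS1 itself had 5 to 7 counts per library.

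HNF4A, which governs hepatocyte and intestinal gene programmes (ENSG00000101076, chromosome 20, 44355700 to 44434596, plus strand), fell, while its paralogue HNF4G did not. HNF4A had 43.4 and 45.9 CPM in the plus Dox libraries, against 77.4 and 80.1 CPM in the minus Dox libraries. The log2 fold change was −0.82 (SE 0.06) with an adjusted p of 4.90e-15 in edgeR, and the groups were far apart beside the spread within them. The counts do not say from which of the promoters shown above the transcripts came.

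HNF4G, a paralogue expressed in intestine and kidney (ENSG00000164749, chromosome 8, 75407914 to 75566843, plus strand), had 7.50 and 7.58 CPM in the plus Dox libraries, against 4.64 and 5.18 CPM in the minus Dox libraries. Its log2 fold change was 0.62 (SE 0.14) with an adjusted p of 2.40e-04 in edgeR. With the trend on GC, length and abundance taken out the value was −0.01 (edgeR adjusted p = 0.971), so its rise was lost under that correction. The GC content of its longest transcript was 35.9%, the lowest of the 8 members, which otherwise lay between 50.7% and 60.6%. Per kilobase of exon, HNF4A was 3.80 and 3.98 times HNF4G in the plus Dox libraries, against 11.0 and 10.2 times in the minus Dox libraries. This ratio is taken within a library and does not depend on the scaling between libraries, but it does depend on that trend: with it taken out, the log2 fold changes were −0.73 for HNF4A and −0.01 for HNF4G, a smaller gap.

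NKX2-1 (ENSG00000136352, chromosome 14, 36516392 to 36521149, minus strand) had 6 and 2 counts in the plus Dox libraries and 0 counts in both minus Dox libraries. A count of 0 allows up to 3 counts, or 0.0887 and 0.0800 CPM in the minus Dox libraries, for counting error only. It was dropped by the filter on low counts, and no fold is given because plus Dox replicate 2 was under that limit as well. Without the filter its edgeR p was 0.0464 unadjusted and 0.129 adjusted. NKX2-1-AS1, opposite 12.7% of its exon bases, had 0 counts in every library.

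**Figure D2:**
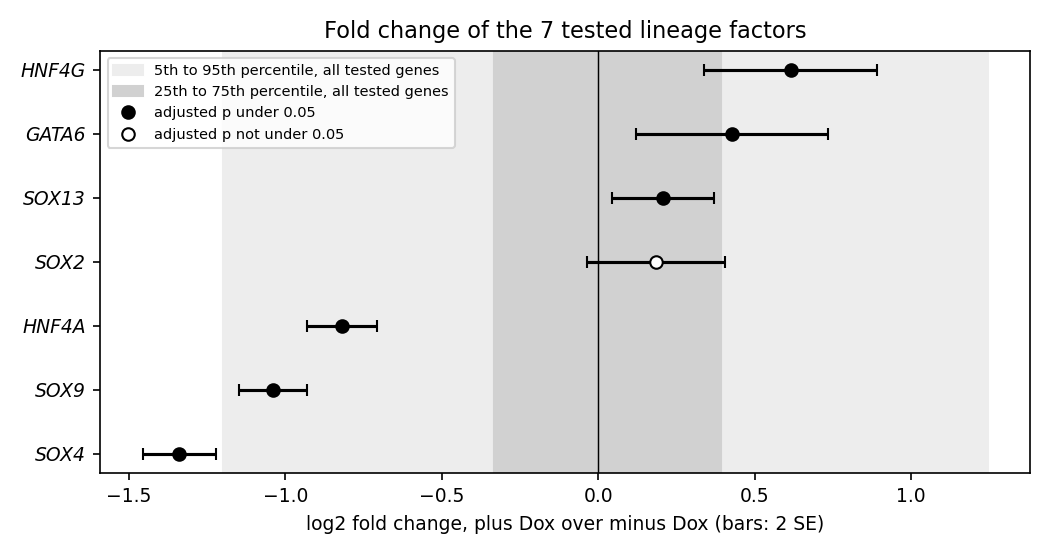
Log2 fold change, plus Dox over minus Dox (horizontal axis), of the 7 tested lineage factors, with bars of 2 SE from edgeR. Filled points have an adjusted p under 0.05, and the bands give the 5th to 95th and 25th to 75th percentiles of all 18046 tested genes. SOX4 lies below the 5th percentile at −1.20, while SOX2, SOX13, GATA6 and HNF4G lie between 0.18 and 0.62.

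Per kilobase of union exon length, which allows levels of different genes to be compared, SOX9 came first in both groups. In plus Dox it had 13.3 ± 1.14 CPM per kilobase, followed by HNF4A with 6.10 ± 0.236 and SOX4 with 5.88 ± 0.383 (SD, n = 2), and the libraries of HNF4A and SOX4 overlapped. In minus Dox SOX9 had 27.2 ± 0.382 CPM per kilobase, SOX4 14.9 ± 0.393 and HNF4A 10.8 ± 0.261 (SD, n = 2), with no overlap between neighbours. SOX2 and SOX13 came next in both groups, at 4.55 and 4.04 CPM per kilobase in plus Dox and 4.01 and 3.50 in minus Dox, and their libraries overlapped in minus Dox. HNF4G and GATA6 had 1.57 and 1.55 CPM per kilobase in plus Dox, which overlapped, and 1.02 and 1.16 in minus Dox, which did not. The place of SOX13 depends on the length used: per kilobase of its longest transcript it had 8.36 in plus Dox, second only to SOX9, and 7.23 in minus Dox, above SOX2.

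**Figure D3:**
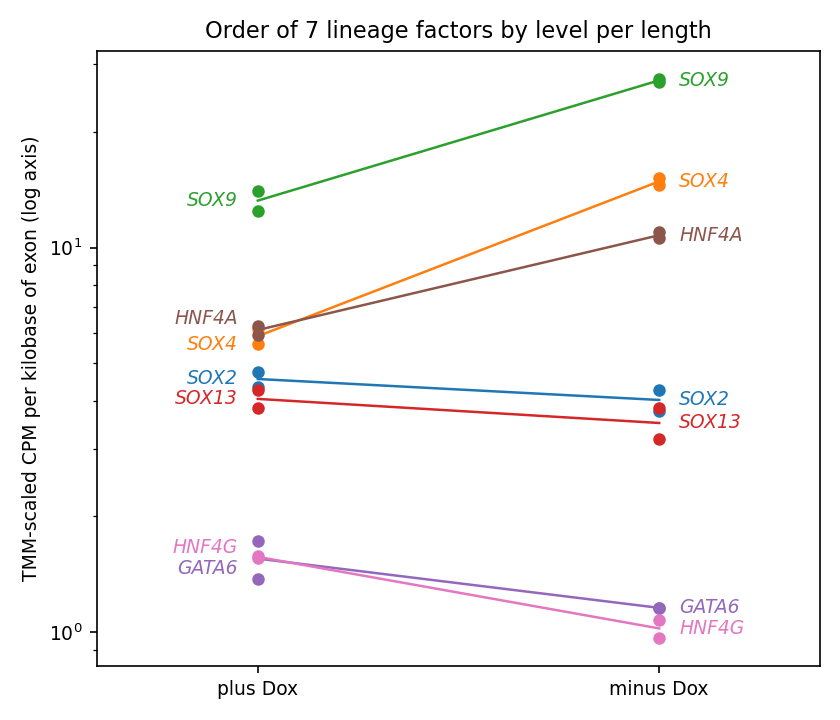
TMM-scaled CPM per kilobase of union exon length (log axis) of 7 lineage factors in plus Dox (left) and minus Dox (right). Points are libraries and lines join the group means, and NKX2-1 is left out because it was at 0 in minus Dox. The spread from SOX9 to the lowest member is narrower in plus Dox (13.3 to 1.55) than in minus Dox (27.2 to 1.02).

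The other SOX genes were examined by subfamily, a textbook grouping applied after their values were known. Over all 19 SOX genes listed, members included, 12 were tested, 4 rose, 3 fell and 5 did not pass, and 6 had 0 counts in every library. Of those that rose, SOX30 passed the filter on low counts only through plus Dox, with 13 and 14 counts there and 5 and 2 in minus Dox. In SoxC both tested genes fell: SOX12 averaged 98.6 CPM in plus Dox and 165 CPM in minus Dox, a log2 fold change of −0.75 (SE 0.05), beside SOX4. SOX11, the other SoxC gene, had no counts. In SoxD SOX6, a partner of SOX5 in cartilage, rose with SOX13, at 8.19 CPM in plus Dox and 4.84 CPM in minus Dox (log2 fold change 0.76, SE 0.13), and SOX5 had no counts. In SoxE SOX8 had a log2 fold change of 0.98, opposite in sign to SOX9, at only 1.41 CPM in plus Dox and 0.709 CPM in minus Dox. Its call was lost in DESeq2 (adjusted p = 0.140) and without minus Dox replicate 1 (0.116) or plus Dox replicate 1 (0.179), and with the replicate block and the trend together (0.0524). None of the 3 SoxF genes SOX7, SOX17 and SOX18 passed in edgeR, with unadjusted p-values that were all over 0.05. The testis gene SOX30 was called higher at 0.393 CPM in plus Dox against 0.101 CPM in minus Dox. The call was lost in DESeq2 (adjusted p = 0.171) and in edgeR with the trend on GC, length and abundance taken out (0.0622). It was also lost with the replicate block and the trend together (0.0725). The call was not stable when 1 library was left out, with log2 fold changes from 1.38 without minus Dox replicate 2 to 2.79 without minus Dox replicate 1. Among the 15 SOX genes beside the members 50.0% of the 8 tested were called, near the 56.9% of all tested genes.

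GATA relatives also moved both ways. Of 6 tested among 8 GATA-type genes and FOG cofactors 2 rose and 2 fell, with a median log2 fold change of 0.05, and the share called, 66.7%, stood beside 56.9% of all tested genes. GATA3, a factor of T cells and luminal epithelium, fell, at 5.26 CPM in plus Dox and 9.20 CPM in minus Dox (log2 fold change −0.81, SE 0.13). GATA5 had a log2 fold change of 0.43, as GATA6 did, and lost its call in DESeq2 (adjusted p = 0.204) and without minus Dox replicate 1 (0.149) or plus Dox replicate 2 (0.149). GATA4, an endoderm relative of GATA6, averaged 7.75 CPM in plus Dox and 7.94 CPM in minus Dox and did not pass (adjusted p = 0.847 in edgeR). The FOG cofactors, which bind GATA zinc fingers, differed in sign, with ZFPM2 at 1.37 and ZFPM1 at −0.32 on the log2 scale, and ZFPM1 missed when scaled by library size alone (edgeR adjusted p = 0.329).

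Other factors of the liver and gut network moved both ways. Of 8 tested among 10 further genes of that network 3 fell, 1 rose and 4 did not pass, with a median log2 fold change of −0.30, and scaling by library size alone gave 2 higher and 2 lower. NR5A2, a nuclear receptor of bile acid and gut gene control, averaged 23.6 CPM in plus Dox and 61.7 CPM in minus Dox (log2 fold change −1.39, SE 0.06). NR1H4, the bile acid receptor, averaged 1.55 CPM in plus Dox and 3.06 CPM in minus Dox (log2 fold change −0.98, SE 0.24). FOXA2 fell by 0.35 and missed when scaled by library size alone (edgeR adjusted p = 0.0880). The gene that rose was FOXA3, at 9.35 CPM in plus Dox and 6.46 CPM in minus Dox (log2 fold change 0.53), and its call was lost without minus Dox replicate 1 (0.28, edgeR adjusted p = 0.0813). The share called, 50.0%, was below the 56.9% of all tested genes.

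**Figure D4:**
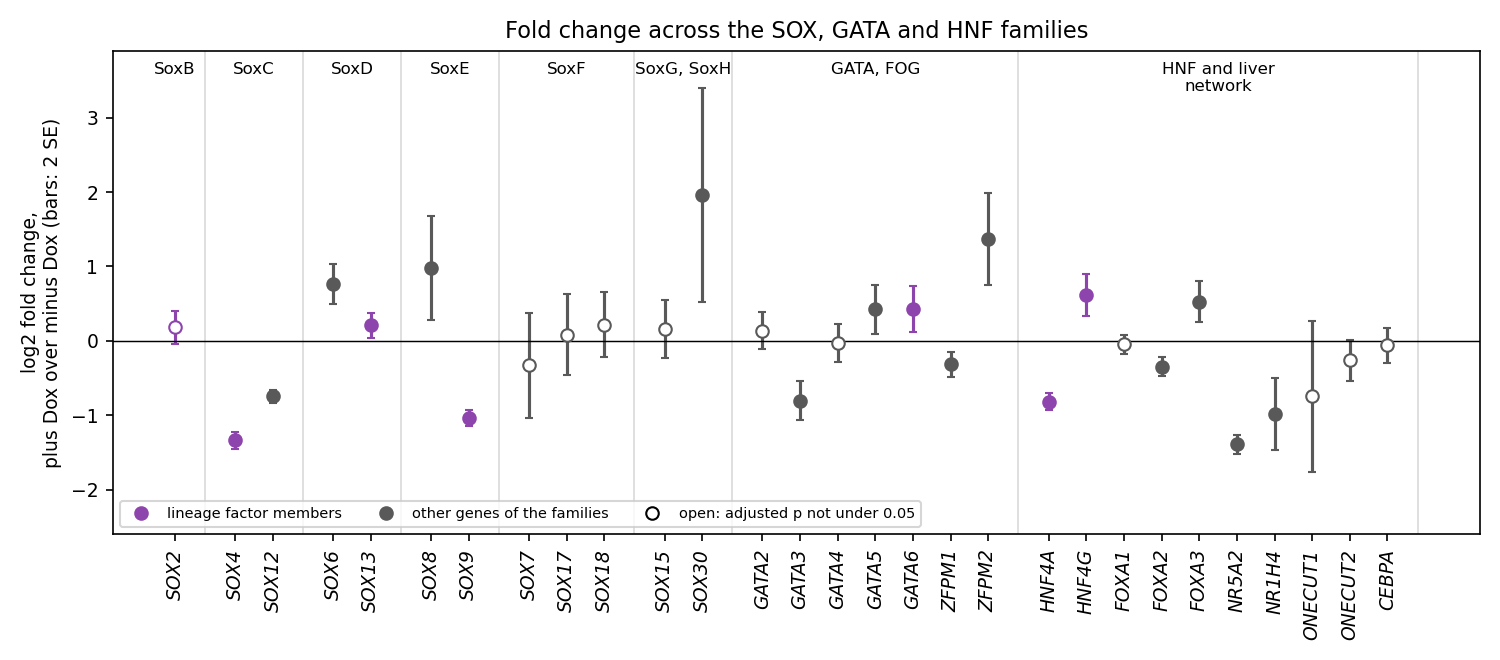
Log2 fold change, plus Dox over minus Dox (vertical axis), of tested genes of the SOX, GATA and HNF families, with bars of 2 SE from edgeR. Lineage factor members are purple, and open points did not have an adjusted p under 0.05. SOX4 and SOX12 lie below 0 and SOX6 and SOX13 above it, and HNF4A, NR5A2 and NR1H4 lie below 0.

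Other lung and foregut lineage factors were called in 11 of 15 tested genes (73.3%), of which 7 rose and 4 fell, beside 56.9% of all tested genes. Of those that rose, PDX1 passed the filter on low counts only through plus Dox, so its direction is no evidence about the list. It had 29 and 17 counts in plus Dox and 3 and 11 in minus Dox. PAX9, a pharyngeal endoderm factor, averaged 12.7 CPM in plus Dox and 4.72 CPM in minus Dox (log2 fold change 1.43, SE 0.12). The distal lung ETS factors ETV4 and ETV5 rose by 0.53 and 0.48 on the log2 scale, in contrast to SOX9, with which they mark distal lung tips in the mouse. FOXP1, a repressor of the lung epithelium, had a log2 fold change of −0.59. With library size only 2 genes of this list fell.

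Of genes known to lie downstream of NKX2-1 and HNF4A, many were too low to be tested and the rest moved both ways. Of 13 genes listed under NKX2-1 6 were tested, 2 fell, 1 rose and 3 did not pass (50.0% called, beside 56.9% of all tested genes), and 5 had at most 3 counts in every library. The surfactant lipid enzyme LPCAT1 averaged 22.0 CPM in plus Dox and 65.2 CPM in minus Dox (log2 fold change −1.57, SE 0.07), ABCA3 87.3 and 120 CPM, and LAMP3 2.18 and 0.552 CPM. Of 16 hepatic and intestinal genes under HNF4A 4 were tested, 2 rose and 1 fell (beside 28.4% of all tested genes in each direction), and 7 had at most 3 counts in every library. Coagulation factor F12 fell, at 9.22 CPM in plus Dox and 16.6 CPM in minus Dox. SERPINA1 and AMBP rose, at 1.24 and 14.0 CPM in plus Dox against 0.0858 and 10.3 CPM in minus Dox. SERPINA1 had 41 and 44 counts in plus Dox and 4 and 2 in minus Dox. It passed the filter on low counts only through plus Dox, so its direction is no evidence about the list.

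Among gastric genes 5 of 11 were tested, 2 rose and 2 fell, where 28.4% of all tested genes were called in each direction. The genes that rose passed the filter on low counts only through plus Dox, so their direction is no evidence about the list. The same holds for GKN2, which fell and would not have passed on its plus Dox libraries alone. GKN2 had 29 and 8 counts in plus Dox and 49 and 59 in minus Dox. PGC had 15 and 13 counts in plus Dox and 2 and 5 in minus Dox. ATP4A had 14 and 12 counts in plus Dox and 4 in each minus Dox library. MUC5AC, a mucin of the stomach surface, averaged 1.70 CPM in plus Dox and 9.69 CPM in minus Dox (log2 fold change −2.51, SE 0.16), and GKN2 0.531 and 1.51 CPM. The rises of PGC (0.407 CPM in plus Dox, 0.0963 CPM in minus Dox) and ATP4A (0.378 and 0.113 CPM) were lost in DESeq2, with adjusted p-values of 0.143 and 0.222, and when any 1 library was left out. GKN2 also lost its call without plus Dox replicate 2 (adjusted p = 0.0689). Among 10 cartilage genes under SOX9, 3 were tested and all 3 rose, where 28.4% of all tested genes were called higher: the collagen genes COL9A2 (1.37 CPM in plus Dox, 0.382 CPM in minus Dox), COL9A3 (1.03 and 0.380 CPM) and COL11A2 (3.82 and 2.41 CPM). COL9A2 had 50 and 44 counts in plus Dox and 6 and 22 in minus Dox. It would not have passed the filter on low counts on its minus Dox libraries alone, so its direction is no evidence about the list. The log2 fold change of COL9A2 was 1.80, and it was 1.204 without minus Dox replicate 1 and 2.91 without minus Dox replicate 2. In DESeq2 COL9A3 and COL11A2 did not pass, with adjusted p-values of 0.0643 and 0.0747. COL11A2 also missed without plus Dox replicate 1 (0.0686), and COL2A1, the classic SOX9 target, had 7 and 2 counts in plus Dox and 1 and 2 in minus Dox.

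For each member that passed, the tested protein-coding genes with the most similar profile over the 4 libraries were found by the root mean square difference of centred log2 CPM among 10859 genes. With 2 groups this mostly ranks genes by their fold change. The nearest genes were IL11, FZD2 and DCBLD1 for SOX4 and CCL2, AGFG2 and SPP1 for SOX9, at differences of 0.0095 to 0.015 and 0.014 to 0.031. For HNF4A they were CELSR1, SFMBT2 and GRB10 and for HNF4G P2RX4, PCGF3 and AMDHD1. For GATA6 they were NOMO3, CHIC2 and ZNF10, where NOMO3 has near-identical copies that may have split its reads, and for SOX13 ZNF81, PRKCZ and ZNF764. Many genes lay close: 92 were within 0.1 of SOX4, 154 of SOX9, 403 of HNF4A and 621 of HNF4G.

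**Figure D5:**
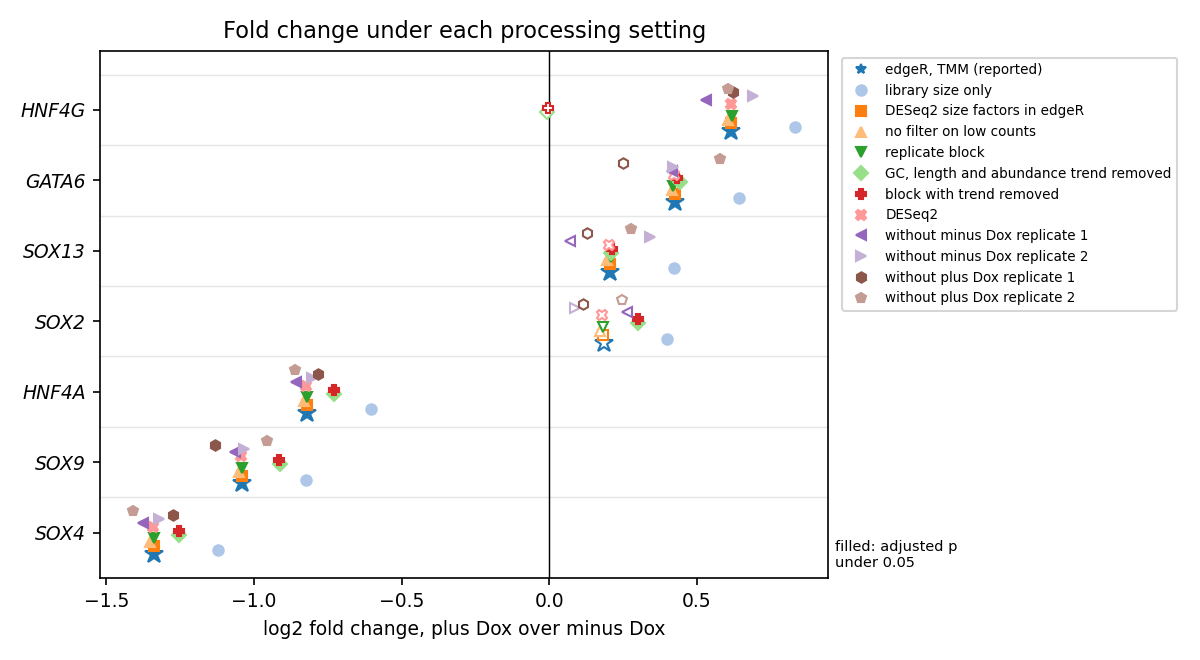
Log2 fold change, plus Dox over minus Dox (horizontal axis), of the 7 tested lineage factors under the reported fit (star) and 11 alternatives, filled where the adjusted p was under 0.05. SOX4, SOX9 and HNF4A lie below 0 and are filled in every setting, and HNF4G lies at 0 in the settings that take out the trend on GC, length and abundance.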

How the data were processed

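PolyA RNA-seq libraries of A549 cells were compared, 2 plus Dox and 2 minus Dox. Each library has 1 deposited table of raw read counts by Ensembl gene, per the file headers. The submitters' processing notes name DRAGEN, cutadapt 4.0, STAR 2.7.10b, featureCounts 2.0.3, DESeq2 2.11.40.7 and hg38, with no role or order. Which annotation release and strand option featureCounts used is not given in the sources used here, so reads of overlapping and antisense genes cannot be told apart. Positions, exon lengths and overlaps come from GENCODE 29 (GRCh38).

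Counts were analysed in R 4.3.3 with edgeR 4.0.16: filterByExpr at its defaults (18046 genes kept), TMM scaling, and the quasi-likelihood test of group with Benjamini-Hochberg adjustment over all kept genes. SE is the absolute log2 fold change before edgeR's shrinkage by its prior count, over the square root of F. Log2 fold changes are given after that shrinkage. Alternatives were library size only, DESeq2 size factors, no filter, DESeq2 1.42.0, each library left out, a replicate block, and offsets that remove a smooth trend on GC content, exon length and abundance (mgcv 1.9.3). The code was tested on simulated data. The members, 15 further gene lists and tests were chosen with earlier results of these data known. Of 149 listed names 148 were matched (GIF was not), and some genes of the liver network are not reported here. Named genes are all members, up to 4 per list with the lowest adjusted p, genes at or near 0, and for each called member the 3 nearest profiles. SOX9-AS1, SOX2-OT, GATA4, CDH1 and COL2A1 were named after their values were seen. Libraries of a group differed beyond sampling noise (chi-square per degree of freedom 2.25 in plus Dox, 4.13 in minus Dox). Total counts limit the precision of low genes. The limits given for counts of 0 cover counting error only, while the SE of a fold change includes the estimated spread between libraries.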

Additional observations from a re-analysis of the deposited data

How the results depend on the processing

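SOX4, SOX9 and HNF4A kept their direction and their call under all 11 alternatives, with log2 fold changes of −1.41 to −1.12, −1.13 to −0.82 and −0.86 to −0.60. The rise of HNF4G was lost when a trend on GC, length and abundance was taken out (−0.00711, SE 0.139, edgeR adjusted p = 0.971). It was also lost with the replicate block added to that (−0.00463, SE 0.144, edgeR adjusted p = 0.982). HNF4G kept its direction and call under the other 9. SOX2 passed with library size only (0.40, adjusted p = 0.00188), with the trend removed (0.30, 0.0213) and with block and trend removal (0.30, 0.0152). In DESeq2 SOX13 (0.20, 0.174) and GATA6 (0.42, 0.162) did not pass, which left 1 member higher. Leaving out 1 library gave 0.0696 to 0.34 for SOX13, 0.25 to 0.58 for GATA6, 0.088 to 0.26 for SOX2 and 1 to 3 members higher. Library size only called 7865 genes higher and 2925 lower and moved the median of all tested genes to 0.22, so that 72.9% of called genes were higher against 50.0% with TMM. The order per length changed for 4 members in plus Dox and 2 in minus Dox with the longest transcript. Leaving out 1 library left 4246 to 4952 genes higher and 4318 to 5170 lower. Deviations from the group mean of same-numbered libraries were not correlated over tested genes (0.0023). That value cannot show whether the numbers mark shared cultures or days. The replicate block gave 5219 higher and 5195 lower genes and changed no member's call. The cause of these shifts was not tested. KRT8 (0.23 and 0.23) and KRT18 (0.33 and 0.33) reversed with the trend taken out, without and with the block, and COL1A1 went to 0.0226 with library size only. NKX2-1 was left out of the reported fit by its filter on low counts.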
